A study of Homo sapiens with 6 samples.

Results

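Macrophages make part of the machinery that starts, limits and dissolves a blood clot. The report covers 9 genes of that machinery, taken by symbol from the 35009 genes of the deposited table: F3, F5, F13A1, VWF, THBD, TFPI, PROCR, PLAU and PLAUR. Each symbol had 1 row in the table. The cells were macrophages made from the THP-1 line, established from a monocytic leukaemia, and exposed to ox-LDL (oxidised low-density lipoprotein), which loads macrophages of the artery wall with lipid. The 3 control libraries and the 3 libraries of MCT4-deficient cells (siMCT4) all received ox-LDL. MCT4, the product of SLC16A3, exports lactate. The labels give neither the ox-LDL dose and time, nor the agent of differentiation, nor whether a non-targeting siRNA went into the controls, so loss of MCT4 and the siRNA itself cannot be told apart. Nothing in them states that replicate libraries came from separate cultures, so the p-values reflect the spread of these libraries alone, which may be technical.

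Clotting begins when tissue factor (F3) on a cell surface meets its plasma protease partner, and ends in a fibrin mesh that factor XIII (F13A1) crosslinks. Tissue factor pathway inhibitor (TFPI) stops the first step, while thrombomodulin (THBD) and the endothelial protein C receptor (PROCR) turn thrombin towards activating protein C, which destroys factor V (F5). Von Willebrand factor (VWF) tethers platelets and carries factor VIII. Urokinase (PLAU), bound to its receptor (PLAUR), makes plasmin, which dissolves fibrin and, on macrophages, matrix. In atherosclerotic plaques tissue factor from macrophages is regarded as the main trigger of thrombosis on rupture.

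Total counts were between 61880619 and 69181938 per library. The mitochondrial share of counts was 4.52% to 4.85% in controls and 3.19% to 3.35% in siMCT4, with no overlap, and its part in the results was not tested. SLC16A3 (chromosome 17, 82217934 to 82240086) had 10.5 ± 0.637 FPKM in controls and 1.22 ± 0.145 in siMCT4 (SD, n = 3 each). FPKM is fragments per kilobase of gene and 1000000 fragments, so a comparison between genes depends on the length taken for each gene. All 10 monocyte and macrophage markers checked averaged above 1 FPKM in both groups, with CD68 the most abundant (381 FPKM in controls, 432 in siMCT4). Among them CSF1R stood at 301 FPKM in controls and 177 in siMCT4 (log2 change -0.87, adjusted p = 1.58e-05, edgeR). CD14 stood at 6.75 and 1.82 FPKM (log2 change -1.99, adjusted p = 0.000343, edgeR). AIF1 (log2 change -1.05), LYZ (-0.47), TYROBP (-0.33) and ITGAM (-0.17) were also called lower by edgeR. CD68, ITGAX, SPI1 and FCER1G did not pass. The part of these falls in the results below was not tested. Libraries 1 and 2 of siMCT4 stood apart in GC-rich genes: over 464 genes of at least 64% GC, the median log2 ratio against the mean of the controls stood at -0.99 and -1.09 there and at -0.24 in library 3. The same median lay between -0.03 and 0.04 in the control libraries.

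Of the 9 genes, VWF and THBD fell and F3, PLAU and TFPI rose in MCT4-deficient macrophages. VWF was 7.12-fold lower and THBD 3.44-fold lower, while F3 was 1.55-fold, PLAU 1.45-fold and TFPI 1.33-fold higher. PLAUR, by far the most abundant of the 9, passed as lower by 0.11 on the log2 scale, a call that no alternative analysis kept, and PROCR did not pass. F5 and F13A1 were barely detected. Calls rest on the quasi-likelihood test of edgeR, with a threshold of 0.05 on p-values adjusted by Benjamini-Hochberg over the 19944 genes tested. Of the 8 members that passed the filter on low counts, 3 were called higher and 3 lower; over all genes tested 20.6% were called higher and 20.8% lower, with directions that depend on scaling (49.8% of calls were higher here, 68.05% on FPKM rescaled to sum to 1000000 and 58.75% with total counts alone). The 3 CPM values (counts per 1000000 counts, scaled by TMM) of each group did not overlap for 6 of the 8, against 55.0% of all tested genes. The median log2 change was 0.15 over the 8 and -0.01 over all genes tested.

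**Figure D1:**
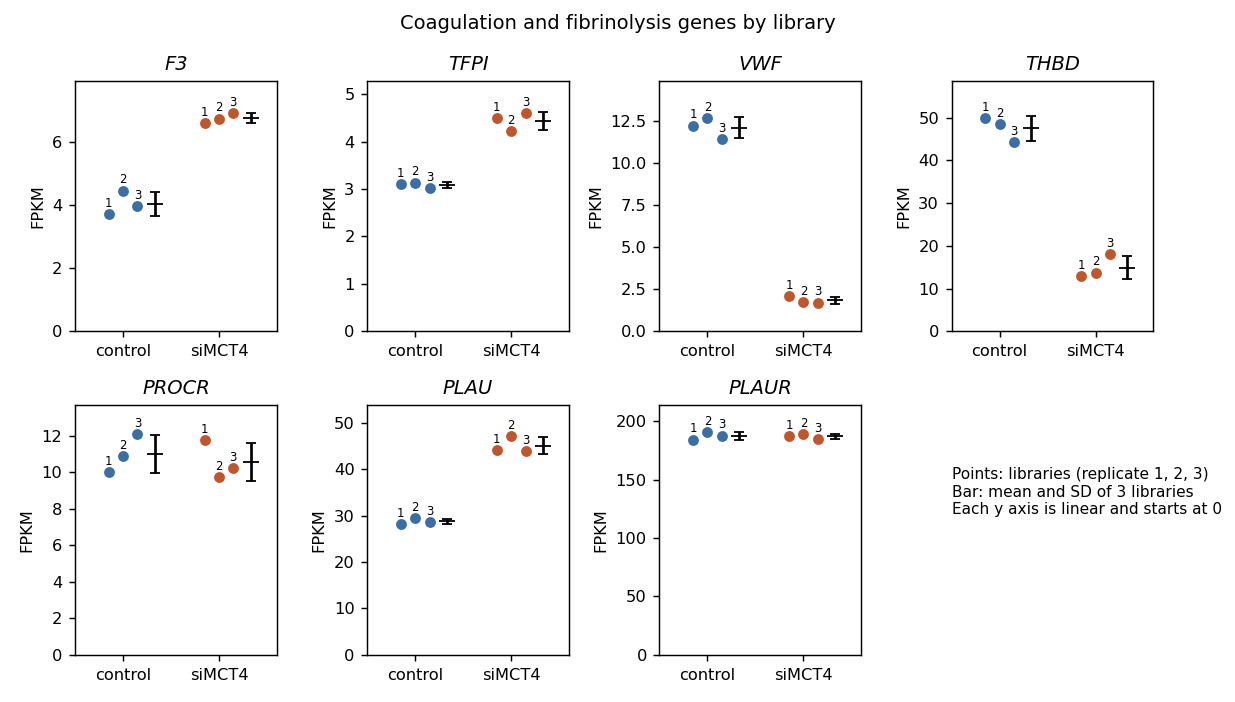
FPKM of 7 members in each library (points, numbered by replicate; each y axis is linear from 0), with the mean and SD of the 3 libraries of a group as a bar. VWF and THBD stand lower and F3, TFPI and PLAU higher in siMCT4 than in any control library, while PROCR and PLAUR overlap.

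The sequences upstream of the start sites are shown for the 3 members called higher and for PLAUR, the receptor whose level differed little while that of its ligand PLAU rose. They are the 250 bases before the RefSeq start on GRCh38.p14, 5′ to 3′ on the strand of the gene. The set of RefSeq windows used here held 7 of the 9 members and had no entry for VWF or THBD. Capitals mark matches, on either strand, to 5 motifs. The AP-1 motif was searched as TGANTCA and the GC box, bound by Sp1, as GGGCGG. The EGR1 motif was searched as GCGGGGGCG. The core of the interferon-stimulated response element was searched as GAAANNGAA, and the TATA box as TATAAA.
F3, chr1:94541760-94542009, minus strand: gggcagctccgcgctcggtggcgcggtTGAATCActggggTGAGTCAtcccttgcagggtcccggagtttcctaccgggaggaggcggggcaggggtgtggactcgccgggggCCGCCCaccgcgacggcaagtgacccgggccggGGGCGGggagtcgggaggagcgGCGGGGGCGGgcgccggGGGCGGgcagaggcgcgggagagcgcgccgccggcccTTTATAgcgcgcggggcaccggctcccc
TFPI, chr2:187554436-187554685, minus strand: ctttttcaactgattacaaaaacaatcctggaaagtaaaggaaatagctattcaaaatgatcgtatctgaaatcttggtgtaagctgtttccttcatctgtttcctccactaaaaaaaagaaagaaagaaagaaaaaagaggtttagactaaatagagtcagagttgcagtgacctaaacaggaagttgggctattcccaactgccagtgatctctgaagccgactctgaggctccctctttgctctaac
PLAU, chr10:73910882-73911131, plus strand: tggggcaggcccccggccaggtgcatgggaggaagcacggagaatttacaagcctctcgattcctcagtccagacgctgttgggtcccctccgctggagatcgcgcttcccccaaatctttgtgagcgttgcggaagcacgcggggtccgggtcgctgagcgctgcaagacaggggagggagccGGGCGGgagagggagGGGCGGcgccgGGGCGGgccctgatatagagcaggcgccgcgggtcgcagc
PLAUR, chr19:43670170-43670419, minus strand: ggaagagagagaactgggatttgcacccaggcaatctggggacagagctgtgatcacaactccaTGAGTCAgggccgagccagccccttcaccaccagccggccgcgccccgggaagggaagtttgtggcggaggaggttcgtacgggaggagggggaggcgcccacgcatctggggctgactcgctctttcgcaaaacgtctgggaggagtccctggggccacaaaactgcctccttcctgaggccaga

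The F3 window had 2 AP-1 matches, whose first bases lie 223 and 210 bases before the start, and 4 GC boxes. The GC box 78 bases before the start overlaps the EGR1 match that begins 82 bases before it, and the TATA match, read on the opposite strand, begins 28 bases before the start. The TFPI window held none of the 5 motifs. RefSeq gives PLAU a pair of starts; the window shown, at which 3 GENCODE v29 transcripts begin within 50 bases, held 3 GC boxes, and the other, at which 1 begins, held none of the motifs. PLAUR had 1 AP-1 match, 186 bases before its start. Among 34943 RefSeq windows of the same length, AP-1 occurred in 6.59%, the GC box in 42.5%, EGR1 in 4.71%, the interferon core in 6.87% and the TATA box in 10.8%. No motif was thus common to all 3 risers in the windows shown, though F3 and PLAU both held GC boxes. The window of PROCR, which did not pass the test, held 2 GC boxes and 1 TATA match. The matches are a description of the letters, not of binding.

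F3 encodes tissue factor, the membrane receptor that starts coagulation (chromosome 1, 94529173 to 94541759, minus strand). Its level was 3.70, 4.46 and 3.96 FPKM in control libraries 1, 2 and 3 and 6.604, 6.74 and 6.92 FPKM in siMCT4 libraries 1, 2 and 3. Every siMCT4 library was above every control library, and the siMCT4 libraries were close to one another. That is a log2 change of 0.63 (SE 0.0893, adjusted p = 0.00113, edgeR). In counts, the controls had 802 to 909 and siMCT4 1259 to 1471. F3 has a GC content of 43.7% over its longest GENCODE transcript, and a correction for GC content gave a log2 change of 0.58.

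TFPI, a secreted and membrane-bound Kunitz-type inhibitor of the tissue factor complex (chromosome 2, 187464230 to 187554492, minus strand), rose together with its target. It had 3.10, 3.13 and 3.02 FPKM in controls and 4.49, 4.21 and 4.60 FPKM in siMCT4. The groups did not overlap, and the controls lay within a narrow band. Its log2 change was 0.41 (SE 0.0551, adjusted p = 0.000873, edgeR). Counts per gene do not tell the isoforms of TFPI apart. The antisense gene CALCRL-AS1 overlaps TFPI on the other strand, with at most 9 counts in a library.

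Because F3 and TFPI moved the same way, their ratio within a library moved little. The ratio of F3 to TFPI in FPKM was 1.19, 1.42 and 1.31 in controls and 1.47, 1.599 and 1.505 in siMCT4. The lowest siMCT4 value lay just above the highest control value, and the ratio of the group means was 1.17. By an exact permutation test, two-sided, p was 0.1, the smallest that 3 against 3 allows (0.1 after adjustment over the 4 ratios computed). Such ratios do not depend on how the libraries are scaled.

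**Figure D2:**
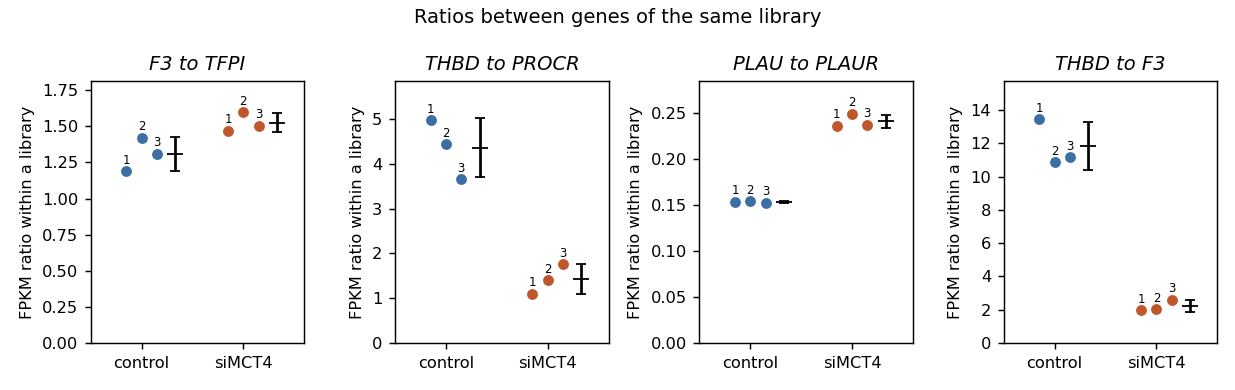
Ratios of FPKM between pairs of members within each library (points, numbered by replicate; linear axes from 0), with mean and SD of 3 libraries per group. THBD falls against both PROCR and F3, and PLAU rises against PLAUR, while F3 to TFPI differs by a small step.

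THBD encodes thrombomodulin, the surface cofactor that makes thrombin activate protein C, and is an intronless gene (chromosome 20, 23045633 to 23049672, minus strand). It stood at 49.8, 48.4 and 44.3 FPKM in controls and at 12.9, 13.7 and 18.0 FPKM in siMCT4. The groups were far apart, and siMCT4 library 3 was the highest of its group. The log2 change was -1.78 (SE 0.127, adjusted p = 3.99e-05, edgeR). The log2 ratios to the control mean were -1.98, -1.89 and -1.50 in siMCT4 libraries 1, 2 and 3, in which the GC-rich genes stood at -0.99, -1.09 and -0.24. THBD has a GC content of 54.8%; corrected for GC it changed by -1.71 on the log2 scale (adjusted p = 5.89e-05, edgeR), and with library 3 as the sole siMCT4 library it was -1.48 (adjusted p = 2.57e-05, edgeR, with 1.14e-45 to 0.00116 over all alternatives). That last fit assumes that the lone library varies as the controls do.

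PROCR, the receptor that presents protein C to the thrombin and thrombomodulin complex (chromosome 20, 35172072 to 35215904, plus strand), did not pass the test. It had 10.01, 10.9 and 12.1 FPKM in controls and 11.7, 9.73 and 10.2 FPKM in siMCT4. The groups overlapped. The log2 change was -0.17 (95% interval -0.42 to 0.08, adjusted p = 0.255, edgeR), and a change as large as that of THBD lies outside that interval. MMP24OS overlaps PROCR on the opposite strand, with 445 to 616 counts per library against 1188 to 1464 for PROCR; how the counting treated strand is not known from the labels, so reads of the 2 genes may be mixed. The ratio of THBD to PROCR was 4.98, 4.45 and 3.66 in controls and 1.10, 1.41 and 1.76 in siMCT4, and that of THBD to F3 was 13.5, 10.9 and 11.2 in controls and 1.96, 2.03 and 2.61 in siMCT4. The fall in the ratio of THBD to F3 between group means was 5.38-fold, with groups that did not overlap (exact permutation p = 0.1).

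VWF, a multimeric glycoprotein best known from endothelial cells and platelets (chromosome 12, 5948877 to 6124770, minus strand), showed the largest change of the tested members. It had 12.2, 12.7 and 11.4 FPKM in controls and 2.07, 1.72 and 1.70 FPKM in siMCT4. No library came near the other group. The fitted log2 change was -2.83 (SE 0.0882, adjusted p = 1.06e-06, edgeR), which ranked 123 among the 19944 tested genes from the most negative. VWF has a GC content of 58.5%, and its log2 ratios to the control mean were -2.63, -2.89 and -2.90 in siMCT4 libraries 1, 2 and 3. In the same libraries the GC-rich genes stood at -0.99, -1.09 and -0.24. Beyond a correction for GC content, the part of that shift in the fall of VWF was not tested. After the GC correction the log2 change was -2.65, and on log2(FPKM + 1), which understates changes of low genes, it was -2.21.

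VWFP1, a partial pseudogene copy of VWF on chromosome 22 (16690103 to 16704477) with which reads can be shared, was counted 34, 33 and 0 times in controls and 0 times in every siMCT4 library. VWF itself had 8471 to 9525 counts in controls and 1290 to 1424 in siMCT4, and with the counts of the pseudogene added its log2 change was -2.84. Of 10 endothelial markers, 8 were found by symbol among the 35009 genes. Of the 6 tested, TIE1 was lower, MMRN2 higher, and KDR, TEK, ESAM and ERG did not pass. TIE1, the 1 of them above 1 FPKM, averaged 8.77 in controls and 6.76 in siMCT4 (log2 change -0.48, adjusted p = 0.000802, edgeR). MMRN2 averaged 0.0491 and 0.187 FPKM (log2 change 1.78, adjusted p = 0.00918, edgeR). CLDN5 and ROBO4 were under 0.01 FPKM in both groups. The summed endothelial level, made up mostly of TIE1, was 8.61 to 9.57 FPKM in controls and 6.89 to 7.62 in siMCT4. The summed level of 5 megakaryocyte and platelet markers was 1.72 to 2.09 FPKM in controls and 0.870 to 1.44 in siMCT4; PPBP, at 1.24 and 0.238 FPKM, was called lower and the other 4 did not pass. The summed levels ran from 0.584 to 0.709 FPKM in controls and 0.762 to 3.29 in siMCT4 for 5 fibroblast markers, from 14.0 to 17.9 and 12.01 to 14.8 for 4 hepatocyte markers, and from 0.368 to 0.475 and 1.68 to 1.99 for 2 lymphocyte markers. Among the fibroblast markers COL1A2 was counted 0 times in every control and 1892, 1782 and 0 times in siMCT4 libraries 1, 2 and 3, so libraries 1 and 2 stood apart in that gene as well as in GC-rich genes. Of the lymphocyte markers CD79A was higher, at 0.205 FPKM in controls and 1.69 in siMCT4 (adjusted p = 0.000143, edgeR), and APOA1, a hepatocyte marker, was lower, at 16.4 and 12.7 FPKM (adjusted p = 0.0209, edgeR). TIE1 and APOA1 have a GC content of 60.8% and 62.7%, and the part of GC content in their falls was not tested. The part of other cell types in the fall of VWF was not tested, and in bulk RNA fewer cells that express a gene cannot be told apart from less RNA per cell.

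PLAU encodes urokinase, the protease that activates plasminogen at the cell surface (chromosome 10, 73909177 to 73917494, plus strand). It had 28.2, 29.4 and 28.6 FPKM in controls and 44.2, 47.2 and 43.8 FPKM in siMCT4. All siMCT4 libraries were above all controls. This was a log2 change of 0.54 (SE 0.0467, adjusted p = 0.000104, edgeR). The long non-coding gene C10orf55 overlaps PLAU on the other strand, with 35 to 64 counts per library against 6010 to 10005 for PLAU.

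PLAUR, the urokinase receptor that holds PLAU on the membrane (chromosome 19, 43646095 to 43670169, minus strand), hardly differed. It had 184, 191 and 188 FPKM in controls and 187, 189 and 185 FPKM in siMCT4, and on that scale the groups overlapped. In CPM they did not, with 918, 939 and 944 in controls and 862, 873 and 855 in siMCT4. The log2 change was -0.11 (95% interval -0.19 to -0.03, adjusted p = 0.0365, edgeR), against 0.09 on FPKM rescaled to sum to 1000000 (adjusted p = 0.115, limma), so the direction depended on the scaling. None of 19 alternative analyses called it, the adjusted p over them being 0.0560 to 0.956. The ratio of PLAU to PLAUR, which is free of scaling, was 0.153, 0.154 and 0.152 in controls and 0.236, 0.249 and 0.237 in siMCT4. The control libraries were almost equal and the siMCT4 libraries all higher, by 1.57-fold between group means (exact permutation p = 0.1).

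F5, the cofactor that speeds thrombin formation (chromosome 1, 169511951 to 169586481, minus strand), was counted 10, 0 and 10 times in controls and 12, 17 and 0 times in siMCT4. It passed the filter but its values overlapped (log2 change 0.48, 95% interval -2.60 to 3.55, adjusted p = 0.802, edgeR). F13A1, the factor XIII subunit of the crosslinking enzyme and a common marker of tissue macrophages (chromosome 6, 6144084 to 6321013, minus strand), was counted 0, 8 and 8 times in controls and 0, 7 and 0 times in siMCT4 and was too low to test. A difference in either gene was not detectable at this depth.

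**Figure D3:**
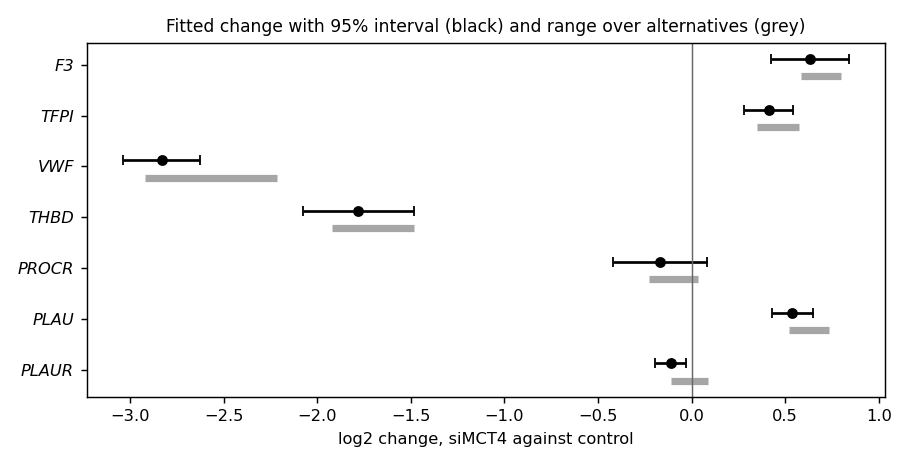
Log2 change of siMCT4 against control for 7 members from edgeR, with its 95% interval (black), and the range over alternative analyses (grey). The intervals of VWF and THBD lie far below 0 and those of F3, TFPI and PLAU above it, while the grey ranges of PROCR and PLAUR cross 0.

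By FPKM the order of levels in controls was PLAUR (188 ± 3.30), THBD (47.5 ± 2.88), PLAU (28.8 ± 0.614), VWF (12.1 ± 0.617), PROCR (10.996 ± 1.05), F3 (4.04 ± 0.384) and TFPI (3.09 ± 0.0576; SD, n = 3). VWF and PROCR did not differ beyond their spread. In siMCT4 the order was PLAUR (187 ± 2.22), PLAU (45.1 ± 1.83), THBD (14.9 ± 2.76), PROCR (10.6 ± 1.05), F3 (6.75 ± 0.157), TFPI (4.43 ± 0.198) and VWF (1.83 ± 0.209). PLAU thus stood above THBD in siMCT4 and below it in controls, and VWF went from the middle to the end of the order. Both orders depend on the gene lengths behind FPKM.

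The genes whose profile over the 6 libraries was nearest to that of a called member were ranked by the root mean square difference of centred log2(CPM + 0.5), over 14297 genes of at least 1 CPM. For THBD they were RHBDF1 (0.0439) and TFPI2 (0.0728), a paralogue of TFPI that inhibits plasmin and other proteases. For VWF they were IQGAP3 (0.0769) and EVPL (0.107), and for F3 NDUFAF1 (0.0314) and MFAP3 (0.0383). For TFPI SHOC2 was near (0.0226), for PLAU NEURL4 (0.0129) and RBM43 (0.0146), and for PLAUR OLA1 (0.0155) and SRGN (0.0175). The 0.5 added to CPM shrinks the differences of low genes, and the fitted log2 change of EVPL was -4.76.

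Of 59 other genes of coagulation and fibrinolysis, 49 were found by symbol among the 35009 genes and 37 passed the filter on low counts. Among the 37, 4 were higher, 15 lower and 18 did not pass, with a median log2 change of -0.19, against 20.6% higher and 20.8% lower over all genes tested. Without siMCT4 replicate 3 the number higher was 10, and without siMCT4 replicate 1 or 2 it was 2. On FPKM rescaled to sum to 1000000, 8 were higher and 9 lower.

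Among the other procoagulant genes 2 of 10 tested were higher, 5 lower and 3 did not pass (median log2 change -0.45). FGL2, a membrane protein of macrophages with prothrombinase activity, had 1.502, 1.69 and 1.40 FPKM in controls and 11.6, 11.8 and 12.1 FPKM in siMCT4. The log2 change of 2.84 (SE 0.0751, adjusted p = 5.38e-07, edgeR) was close in size to that of VWF, in the opposite direction. VKORC1, which recycles vitamin K for the carboxylation of clotting factors, was uneven within siMCT4, with 17.4, 16.9 and 17.8 FPKM in controls and 6.30, 6.38 and 15.3 in siMCT4. Its log2 change was -1.005 (adjusted p = 0.0445, edgeR), and over 19 alternatives it ran from -1.54 to -0.27. VKORC1 was not called in 10 of them. These included the fits without any 1 control library (adjusted p = 0.106 to 0.123, edgeR) and without siMCT4 replicate 1 or 2 (adjusted p = 0.130 and 0.128). The fit with a GC correction was another (-0.81, adjusted p = 0.0635, edgeR). F8, the factor that VWF carries and named after its values were seen, fell from 1.26 to 0.884 FPKM (log2 change -0.62, adjusted p = 0.00662, edgeR). F8 was not called on rescaled FPKM (-0.34, adjusted p = 0.0619) or with library 3 as the sole siMCT4 library (-0.39, adjusted p = 0.0826). F10 had at most 9 counts in any library, and F7 was not found by symbol among the 35009 genes.

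Of the other anticoagulant genes 1 of 9 tested was higher, 4 lower and 4 did not pass (median log2 change -0.46). TFPI2 had 13.1, 11.97 and 12.4 FPKM in controls and 3.45, 3.87 and 4.77 FPKM in siMCT4. Its log2 change was -1.74 (SE 0.127, adjusted p = 4.51e-05, edgeR), the opposite direction to TFPI. PROS1, the protein S cofactor of protein C, fell from 7.27 ± 0.309 to 5.71 ± 0.258 FPKM (log2 change -0.46, adjusted p = 0.000894, edgeR). GAS6, a relative of protein S, fell by 0.68 (adjusted p = 0.0159, edgeR). GAS6 has a GC content of 61.8%, and corrected for GC it changed by -0.29 (adjusted p = 0.130). Without siMCT4 replicate 2 it was -0.64 (adjusted p = 0.0555, edgeR), and without control replicate 2 or 3 the adjusted p was 0.0725 and 0.0528. With library 3 as the sole siMCT4 library the log2 change of GAS6 was -0.37. On rescaled FPKM it was -0.43 (adjusted p = 0.0680, limma). GAS6 was not called in 7 of 19 alternatives.

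Receptors for thrombin and related proteases were low. F2R, the main thrombin receptor, was counted 106, 117 and 109 times in controls, and 273, 268 and 78 times in libraries 1, 2 and 3 of siMCT4. The groups overlapped, library 3 being the lowest of all (log2 change 0.84, adjusted p = 0.182, edgeR), and without siMCT4 replicate 3 it was 1.27 (adjusted p = 0.00072). F2RL1 had 0 counts in every control and 56, 57 and 4 in siMCT4, and did not pass the filter, with library 3 again the lowest of its group. F2RL3, named after its values were seen, fell from 58 to 90 counts to 3 to 8 counts (log2 change -3.81, SE 0.438, adjusted p = 0.000414, edgeR).

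In the other fibrinolysis genes 1 of 12 tested was higher, 4 lower and 7 did not pass (median log2 change -0.04). The largest fall among those called was that of A2M, the broad protease inhibitor, from 215 ± 7.70 to 86.9 ± 5.64 FPKM (log2 change -1.41, SE 0.0547, adjusted p = 2.84e-06, edgeR). LRP1, the receptor that clears complexes of proteases and inhibitors, urokinase among them, fell from 34.5 ± 2.29 to 17.3 ± 0.458 FPKM (log2 change -1.11, adjusted p = 6.91e-06, edgeR). LRP1 has a GC content of 60.1%, and corrected for GC it changed by -0.83 (adjusted p = 2.27e-05, edgeR). S100A10, which with annexin A2 binds plasminogen at the surface and was named after its values were seen, rose from 14.2 ± 0.741 to 23.9 ± 1.40 FPKM (log2 change 0.65, adjusted p = 0.000581, edgeR). PLAT, the other plasminogen activator, had at most 20 counts and SERPINB2, an inhibitor of urokinase, at most 19 (log2 change 1.44, SE 0.911, adjusted p = 0.249, edgeR).

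Of the VWF partners and platelet genes 4 were tested, with 0 higher, 1 lower and 3 not passing (median log2 change 0.20). PPBP, a platelet chemokine precursor, fell from 1.24 to 0.238 FPKM (log2 change -2.46, SE 0.314, adjusted p = 0.000694, edgeR). ITGB3, the integrin subunit shared by the fibrinogen and vitronectin receptors and named after its values were seen, stood at 46.2 FPKM in controls and 52.3 in siMCT4 (log2 change 0.07, adjusted p = 0.402, edgeR). The log2 change of ITGB3 was 0.16 without siMCT4 replicate 3 (adjusted p = 0.00331, edgeR) and 0.27 on FPKM rescaled to sum to 1000000 (adjusted p = 0.0128, limma).

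**Figure D4:**
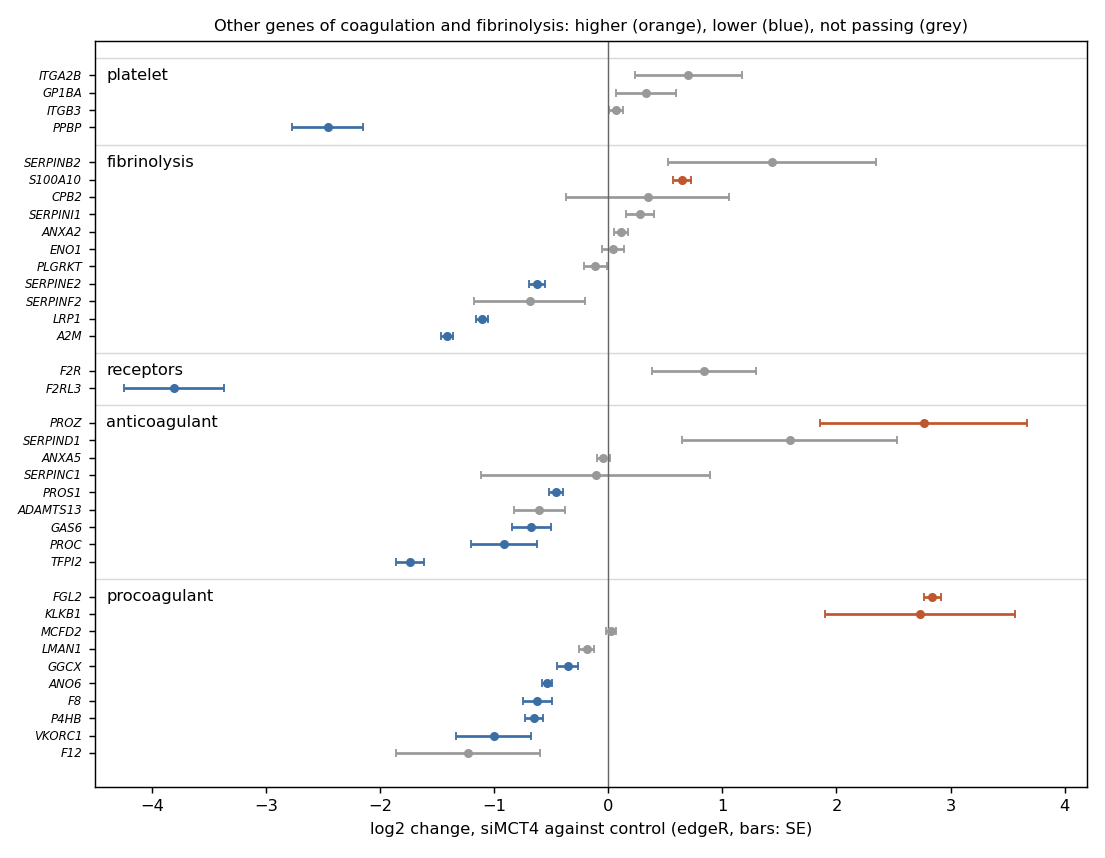
Log2 change of siMCT4 against control with its SE from edgeR for 36 of the other tested genes, grouped by role; orange points were called higher, blue lower and grey did not pass. FGL2 stands out among the higher genes, with KLKB1 and PROZ at counts of at most 48, and F2RL3, PPBP and TFPI2 among the lower. KLKB1 was not called in 8 of 18 alternative analyses and PROZ was not called in 9 of 17.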

How the data were processed

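Polyadenylated RNA of 6 libraries (3 control, 3 siMCT4) was sequenced as strand-marked paired ends, per the labels' protocols. Reads were trimmed with cutadapt 1.9 and aligned with HISAT2 2.2.1 to GRCh38, per the submitters' processing notes; which program counted reads, on which annotation and with which strand option is not given in the sources used here. Raw counts were deposited by the authors beside FPKM for every library, per the file headers (12 columns, all used). Between 2 and 41 counts, 58.7% to 60.9% of values were even. Whether each mate of a read pair was counted separately was not tested.

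The members, lists, motifs and tests were chosen with earlier results of these data known. Counts were tested with edgeR 4.0.16 (R 4.3.3; TMM, quasi-likelihood, two-sided, group as sole factor) across all genes that passed filterByExpr (smallest count 10, smallest total 15), which left 19944. The standard error is the log2 change over the square root of F. Log2 ratios of single libraries used log2(CPM + 0.5). GC content came from the longest GENCODE v29 transcript of a gene. Alternatives used DESeq2 1.42.0, limma 3.58.1 on log2(FPKM + 1) and log2(FPKM + 0.1) for genes of at least 0.1 FPKM in 3 libraries, rescaled FPKM, other size factors and filters, halved counts, a loess GC offset (span 0.3), a replicate block and each library left out. Some of the steps were also run on simulated counts with a common dispersion for all genes, and the outcome is not reported here. Exact permutation tests over 20 assignments were two-sided. Named were all 9 members, called genes of the other lists with a log2 change of at least 1 in size and 1 FPKM, 9 genes of those lists whatever their values, and the 2 nearest profiles of each called member; some results that the rule covers are not reported here. F8, F2RL3, S100A10, ITGB3, KLKB1, PROZ and the markers were named after their values were seen.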

Additional observations from a re-analysis of the deposited data

How the results depend on the processing

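VWF, THBD, F3, TFPI and PLAU kept direction and call in all 19 alternatives (20 for VWF), of which the fit without siMCT4 libraries 1 and 2 and the sum of VWF with VWFP1 were chosen after seeing the data. Their log2 changes ran from -2.92 to -2.21, -1.92 to -1.48, 0.58 to 0.80, 0.35 to 0.58 and 0.52 to 0.73. The value of -2.21 for VWF is on log2(FPKM + 1), where the pseudocount shrinks changes of low genes. PROCR was called in none (-0.23 to 0.03). The members called lower numbered 2 in every alternative, against 3, since PLAUR was not called. PLAUR stood at -0.094 in DESeq2, -0.0997 with median-ratio size factors, -0.026 with total counts, -0.108 without a filter, -0.090 with a filter of 1 CPM, -0.0034 on log2(FPKM + 1) and on log2(FPKM + 0.1), 0.089 on rescaled FPKM (reversed), -0.096 on halved counts, -0.021 with GC correction, -0.112 with a replicate block, -0.021 with a replicate block and GC correction, and -0.107 without siMCT4 libraries 1 and 2; leaving out each library gave -0.111 to -0.081.

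Of the other pathway genes, against 4 higher and 15 lower, 2 were higher with a filter of 1 CPM, with a replicate block, with that block and GC correction, and without siMCT4 libraries 1 and 2, and 2 to 10 when each library was left out; on rescaled FPKM 8 were higher and 9 lower. ENO1, at 0.04 in the main fit, was 0.18 without siMCT4 replicate 3 (adjusted p = 0.00224, edgeR) and -0.20 without siMCT4 libraries 1 and 2. Its direction thus differed between the siMCT4 libraries. Same-numbered libraries did not deviate together (correlations of -0.10, 0.07 and -0.15 over 11075 genes), so the block rests on numbers alone. F5 and F13A1 are limited by depth. Intervals of edgeR cover the spread between these libraries only.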
